A study of Mus musculus with 40 samples.

Results

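The immediate early transcription factors examined here are Egr1, Fos, Jun, Junb, Nr4a1, Ier2, Ier3, Myc and Klf6, a list of 9 genes taken by name and matched by symbol to the expression tables of mouse liver after partial hepatectomy (PH). Of the 9 genes listed, 7 are among the 11119 genes of the tables, and Junb and Ier3 were not analysed here. PH is the surgical removal of a large share of the liver, after which the remaining hepatocytes enter the cell cycle. The series measured polyadenylated RNA of 40 liver samples before PH (0 h) and at 48 h or 72 h after it, in young and older mice, with or without ATRi, an inhibitor of the replication checkpoint kinase ATR, given 24 h after PH. Its title names replication stress that depends on age, so the comparisons ask how age and ATR inhibition alter gene expression in the regenerating liver.

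At 12 months of age the groups were ATRi at 72 h (4 mice), ATRi at 48 h (3 mice), untreated at 72 h (4 mice), untreated at 48 h (3 mice) and 0 h (8 mice). At 3 months they were ATRi at 72 h (4 mice), untreated at 72 h (4 mice), untreated at 48 h (3 mice) and 0 h (7 mice). Strain, sex and the unit of the ATRi dose are not given in the sources used here, and the untreated mice are not said to have received a vehicle. By mouse name, all 4 mice of each 12-month 72 h group and 2 of 4 mice of each 3-month 72 h group also gave a 0 h sample. The 3-month 0 h group also holds mice named wt1, wt2 and wt3, a tag that no other sample carries. The mice of each 48 h group are named M1, M2 and M3, and none of these names occurs at 0 h or 72 h. The labels name hepatocytes as the cell type, and the summed level of 9 measured hepatocyte markers was 15.4 to 16.5 on the log2 scale across the 9 group means. RNA of other cells was also present, with summed levels of 7.72 to 9.70 for 9 macrophage markers and 3.85 to 7.08 for 9 neutrophil markers.

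Immediate early genes are switched on within minutes of a mitogen, cytokine or stress signal, without new protein synthesis, mainly through MAP kinases acting on SRF with its ternary complex factors and through CREB. Their products are short-lived transcription factors that start the later waves of gene expression, and feedback phosphatases and unstable mRNAs end the pulse. In the liver they form the earliest known transcriptional response to PH, and the earliest sampling time here, 48 h, lies long after that pulse.

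The values are the authors' log2 levels of a quantity called sigma, which the sources used here do not define. Whether sigma is scaled to gene length is not known, so levels are compared between groups. Between genes they are set only against the lowest level of each table. Summed levels of a marker list add over its genes in this unit and are compared between groups, not between lists. For 8 groups the tables give only the mean over mice. The 12-month ATRi group at 72 h also has its 4 livers, M545, M546, M547 and M548, singly. Differences are given on the log2 scale as the group named first minus the group named after it. Between 2 groups with means alone a difference of 1 or more on this scale was called without a test. The 5 comparisons with the single livers were tested with limma, with Benjamini-Hochberg adjustment over all 11119 genes and a threshold of 0.05. Because only these 4 livers give a spread between mice, each SE and p below assumes that the other groups vary as they do. In bulk liver, fewer cells of a type and less RNA per cell cannot be told apart.

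The RefSeq promoters of Klf6, Jun, Nr4a1 and Fos are shown because differences of Klf6 and Nr4a1 stand out below and because Jun and Fos encode the AP-1 subunits. Each window holds 250 bases before and 50 after the RefSeq start in GRCm38.p6, read 5′ to 3′ on the gene's own strand. Capitals mark the motifs found on either strand, which are the variant AP-1 site TGACATCA, the CRE core TGACG, the CCAAT box CCAAT, the TATA box TATAAA and the GC box GGGCGG. The Klf6 window is chr13:5861239-5861538 on the plus strand, the Jun window chr4:95052173-95052472 on the minus strand, the Nr4a1 window chr15:101266596-101266895 on the plus strand and the Fos window chr12:85473640-85473939 on the plus strand.
Klf6 promoter: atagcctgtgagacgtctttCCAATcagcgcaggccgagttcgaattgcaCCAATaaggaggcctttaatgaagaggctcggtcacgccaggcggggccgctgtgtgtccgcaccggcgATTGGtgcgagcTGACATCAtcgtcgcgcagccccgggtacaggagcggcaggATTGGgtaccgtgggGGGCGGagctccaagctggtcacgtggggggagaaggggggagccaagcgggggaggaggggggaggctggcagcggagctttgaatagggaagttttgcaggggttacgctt
Jun promoter: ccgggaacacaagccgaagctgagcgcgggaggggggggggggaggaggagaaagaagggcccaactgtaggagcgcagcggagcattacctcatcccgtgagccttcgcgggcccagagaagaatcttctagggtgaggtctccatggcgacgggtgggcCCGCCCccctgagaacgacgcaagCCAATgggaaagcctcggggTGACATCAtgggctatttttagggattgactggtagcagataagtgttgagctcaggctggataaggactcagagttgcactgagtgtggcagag
Nr4a1 promoter: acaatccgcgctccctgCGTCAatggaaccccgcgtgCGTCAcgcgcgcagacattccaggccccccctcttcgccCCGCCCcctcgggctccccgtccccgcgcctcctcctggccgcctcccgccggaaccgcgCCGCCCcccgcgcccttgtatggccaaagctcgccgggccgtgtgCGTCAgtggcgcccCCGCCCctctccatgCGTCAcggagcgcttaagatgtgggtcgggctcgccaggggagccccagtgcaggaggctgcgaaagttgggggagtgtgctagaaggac
Fos promoter: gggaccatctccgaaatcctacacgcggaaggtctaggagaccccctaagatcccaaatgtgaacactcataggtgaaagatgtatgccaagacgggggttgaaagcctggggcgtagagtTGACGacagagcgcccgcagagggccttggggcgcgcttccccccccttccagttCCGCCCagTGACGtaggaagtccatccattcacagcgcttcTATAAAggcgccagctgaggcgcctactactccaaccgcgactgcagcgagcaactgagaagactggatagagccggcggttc
The variant AP-1 site stood in the Klf6 window, beginning at base −119 counted from the start, and in the Jun window, beginning at base −45. It was found in 3.62% of 32851 RefSeq mouse promoters of the same length. The CRE core was found 4 times in Nr4a1 and 2 times in Fos, and in 20.8% of all promoters. CCAAT boxes stood in Klf6 (4 matches) and Jun (1 match), and in 37.4% of all promoters. All 4 windows held a GC box, as did 35.7% of all promoters, and Fos also held the TATA box, as did 13.6%. The complete CRE TGACGTCA, the AP-1 site TGACTCA and the CArG box, searched by its consensus, were in none of these 4 windows. They were in 1.79%, 5.2% and 1.63% of all promoters. No motif overlapped another in these windows. A match describes the letters only, and bases outside these windows were not searched.

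The measured genes are short. By GENCODE M21 on GRCm38 their median span was 4984 bp with 3 exons in the longest mRNA, against 26702 bp and 9 exons over 10409 matched genes of the tables. Klf6 lies at chr13:5861482-5870394 on the plus strand with 4 exons, and Jun at chr4:95049034-95052222 on the minus strand with 1 exon. Nr4a1 spans chr15:101254269-101274795 on the plus strand with 8 exons, and its RefSeq promoter shown above lies inside this span. Fos lies at chr12:85473890-85477273 (plus, 4 exons), Myc at chr15:61985391-61990374 (plus, 3 exons) and Ier2 at chr8:84661331-84662852 (minus, 1 exon). Egr1 lies on chromosome 18 and has 2 exons. Ier2 is the only measured member with another entry of the tables, Nacc1, in the same or next bin of 10000 bp.

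Klf6, Egr1 and Nr4a1 carried most of the differences among the 7 genes. Klf6 was higher after PH than before it at both ages, by 1 or more in all groups but untreated 12-month livers and 3-month ATRi livers at 72 h, and Egr1 was lower by 72 h at both ages. Nr4a1 was below its 0 h level after PH in 12-month livers and above it in 3-month livers. Jun was below its 0 h level in every group after PH, by 1 or more in 1 of them. Ier2 and Myc differed by less than 1 between any of the groups, and Fos was at or near the lowest level listed.

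**Figure D1:**
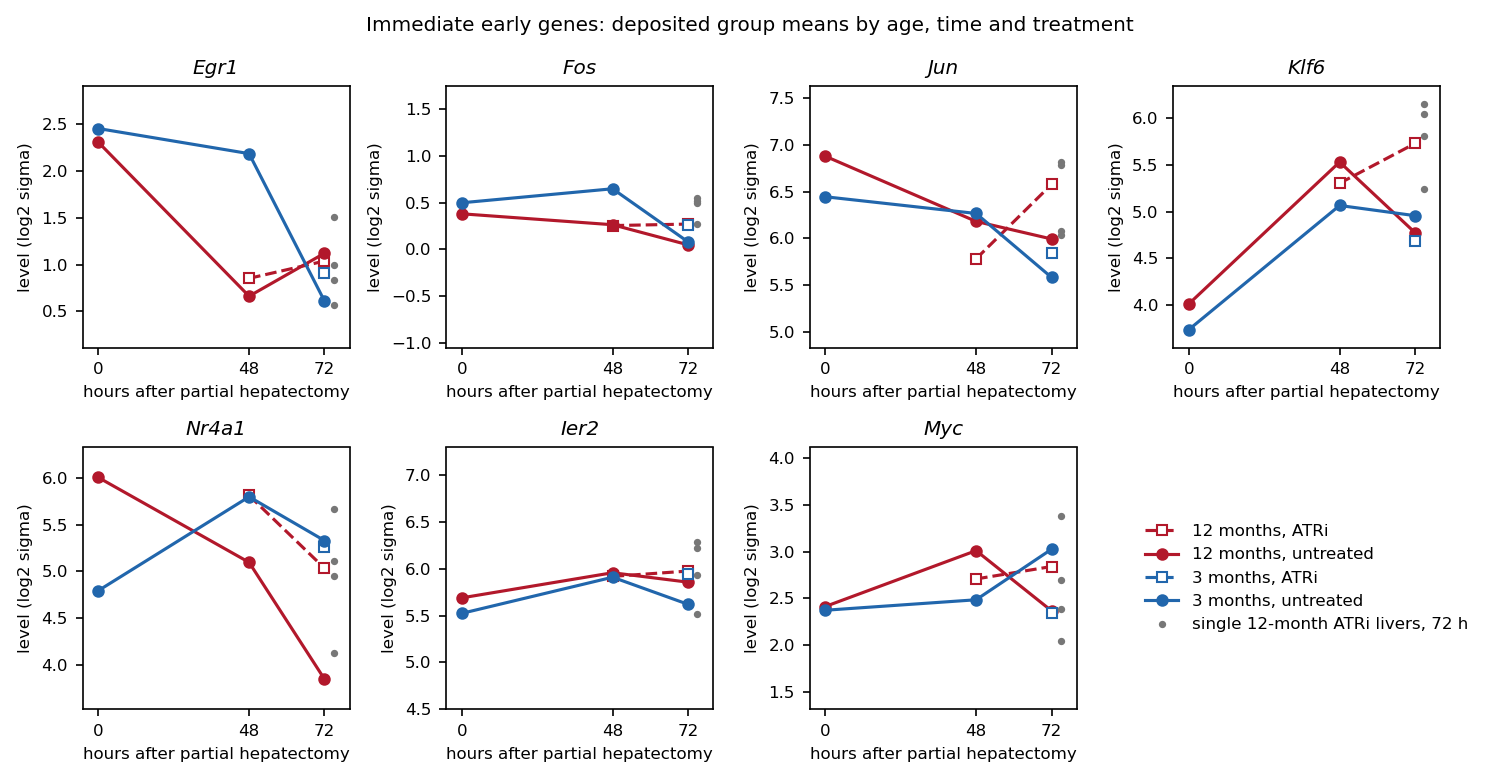
Deposited log2 levels of the 7 measured genes against hours after PH. Red marks 12-month and blue 3-month mice, open squares ATRi and filled circles untreated group means, and grey dots the 4 single 12-month ATRi livers at 72 h, drawn at the right of that time. Every panel spans at least 2.8 log2 units. The steepest courses are those of Klf6, Egr1 and 12-month Nr4a1.

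In 3-month livers, 2 were higher by 1 or more at 48 h than at 0 h (Klf6 and Nr4a1), where 6.43% of all genes were called in either direction. At 72 h against 0 h, 1 was higher (Klf6) and 1 lower (Egr1), against 4.49% of all genes, and at 72 h against 48 h 1 was lower (Egr1), against 4.65%. In 12-month livers, 1 was higher (Klf6) and 1 lower (Egr1) at 48 h than at 0 h, against 5.12% of all genes. At 72 h against 0 h, 2 were lower (Nr4a1 and Egr1), against 3.93%, and at 72 h against 48 h 1 was lower (Nr4a1), against 5.21%. Between ages, 12 against 3 months, the called gene was Nr4a1 at 0 h, higher, where 1.27% of all genes were called. It was Egr1 at 48 h, lower, against 1.36%, and Nr4a1 at 72 h, lower, against 2.74%. The median difference of the 7 genes lay between −0.33 and 0.17 in these comparisons, with 1 exception. At 72 h against 48 h in 3-month livers it was −0.47, against −0.015 over all genes. Some of these medians are the value of Fos, which was at or near the lowest level. Without Fos, an alternative chosen after seeing the data, the 3-month median at 72 h was −0.38 against 48 h and 0.32 against 0 h. The 12-month median at 72 h was then −0.47 against 0 h and −0.42 against 48 h.

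Where an adjusted p is given below for means alone, limma used the spread of the 4 livers for both groups. By that test 13.6% of all genes passed at 48 h against 0 h in 3-month livers, 15.1% at 72 h against 0 h and 5.78% at 72 h against 48 h. In 12-month livers 10.2% passed at 48 h and 12.8% at 72 h against 0 h, and 7.19% at 72 h against 48 h. Between ages 4.83% passed at 0 h, 0.126% at 48 h and 1.87% at 72 h. Under ATRi against 0 h, 9.96% passed at 48 h in 12-month livers and 10.9% at 72 h in 3-month livers.

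Egr1 encodes a zinc finger factor that MAP kinase signalling induces through SRF and ELK. In 12-month livers its level was 2.31 at 0 h, 0.66 at 48 h and 1.12 at 72 h without ATRi. In 3-month livers it was 2.46 at 0 h, 2.19 at 48 h and 0.61 at 72 h. It was thus already low at 48 h in the older mice and still near its 0 h level in the younger ones. These low levels lay above the lowest level of their tables by 0.398 at 48 h and 12 months and by 0.53 at 72 h and 3 months, which limits how far a difference can reach. In 12-month livers at 48 h, markers of some other cells were also lower than at 0 h. They were 9 of 9 macrophage markers (summed level 7.72, against 8.60), 9 of 9 neutrophil markers (4.07, against 5.63) and 11 of 12 endothelial markers (7.01, against 7.43). With borrowed spread limma passed 6, 2 and 0 of them in that order. Lower too were 7 of 8 T and NK cell and 6 of 6 B and plasma cell markers, of which limma passed 2 and 1. Of 12 stellate and fibroblast markers, 10 were higher instead (7.41, against 7.12). In 3-month livers at 48 h, where Egr1 was near its 0 h level, 12 of 12 endothelial markers were lower than at 0 h. So were 8 of 8 T and NK cell and 6 of 6 B and plasma cell markers, but only 5 of 9 macrophage and 3 of 9 neutrophil markers. The part of these markers in the differences of Egr1 was not tested.
The difference from 0 h was −1.65 at 48 h and −1.19 at 72 h in 12-month livers, and −0.27 and −1.85 in 3-month livers. With the livers' spread borrowed, limma gave an adjusted p of 0.00604 and 0.0145 for the 12-month differences and 0.00469 for the 3-month difference at 72 h. With a pseudocount of 1 the 12-month difference at 72 h was −0.908, which is under the size called. With the lowest level of each table subtracted, an alternative chosen after seeing the data, Egr1 differed from 0 h by −1.75 at 48 h and −1.12 at 72 h in 12-month livers and by −1.82 at 72 h in 3-month livers. At 48 h, 12-month livers were 1.53 below 3-month livers, with an adjusted p of 0.126 by the same fit, so this difference is called by its size only. The difference of the 48 h responses, 12 minus 3 months, was −1.38 and was not tested.

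Under ATRi, Egr1 stood at 0.85 at 48 h and 1.04 at 72 h in 12-month livers and at 0.91 at 72 h in 3-month livers. These lay close to the untreated levels of the same age and time, with differences of 0.19, −0.08 and 0.30. The 4 ATRi livers had 0.995, 0.57, 1.51 and 0.84 in the order M545, M546, M547 and M548. All were below the 0 h mean of 2.31. Against 0 h the 12-month ATRi livers at 72 h fell by 1.27 (SE 0.186, limma adjusted p = 0.0030), and the call held in 10 of 10 alternatives. In order of level, the single gap wider than the SD of the 4 livers (0.395) was the 1.07 between the 3-month 48 h mean and the next mean, 12 months untreated at 72 h. The 3 means above this gap are both 0 h groups and 3 months at 48 h. Here and below, this SD is between single mice, while each mean is over 3 to 8 mice. It is therefore a wide measure for gaps between means.

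Klf6 encodes a Krüppel-like factor that is induced early after tissue injury. In 12-month livers its level was 4.01 at 0 h, 5.53 at 48 h and 4.77 at 72 h. In 3-month livers it was 3.74 at 0 h, 5.065 at 48 h and 4.96 at 72 h. All 7 group means after PH lay above both 0 h means.
The difference from 0 h was 1.52 at 48 h and 0.76 at 72 h in 12-month livers, and 1.33 and 1.22 in 3-month livers. With borrowed spread the limma adjusted p was 0.0110 for the 12-month difference at 48 h, 0.0154 for 48 h at 3 months and 0.0158 for 72 h at 3 months. The 12-month difference at 72 h, 0.76, was called neither by size nor by this test (adjusted p = 0.0576). The gap of 0.68 between the 0 h means and the next mean was the only step in its order wider than the SD of the 4 livers (0.406).

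With ATRi, Klf6 stood at 5.30 at 48 h and 5.73 at 72 h in 12-month livers and at 4.69 at 72 h in 3-month livers. The 4 single livers had 6.04, 5.81, 6.15 and 5.24. Each was above the untreated 12-month mean at 72 h of 4.77, by 0.47 in M548 and by 1.04 to 1.38 in the other livers. The difference between the means was 0.955 (SE 0.237) with an adjusted p of 0.0501 in limma, which missed the threshold. It ranged over 10 alternatives between 0.0483 and 0.135, and the alternative past the threshold kept only genes with a mean level of 1 or more. Against 3-month ATRi livers at 72 h, Klf6 rose by 1.04 (SE 0.237, adjusted p = 0.0226). This call was lost without M545 or without M547, where the highest adjusted p over the alternatives was 0.0680. Against 12-month livers at 0 h it rose by 1.72 (SE 0.205, adjusted p = 0.00173), and this held in 10 of 10 alternatives.

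**Figure D2:**
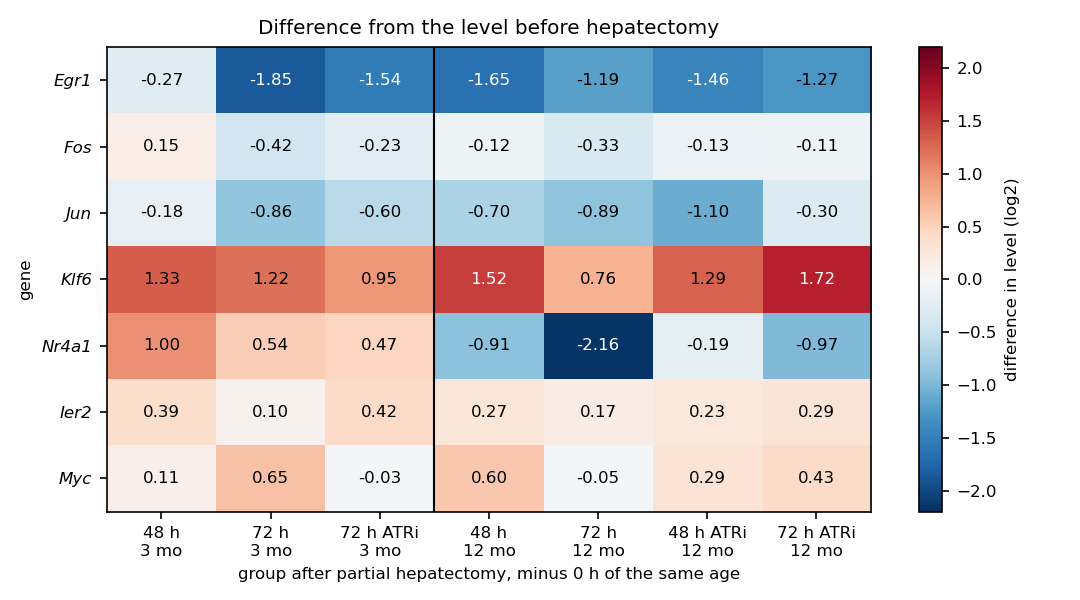
Difference in log2 level of each gene between each group after PH and the 0 h group of the same age, with red for higher and blue for lower after PH. The Klf6 row is positive throughout, from 0.76 to 1.72, the Egr1 row negative throughout, and the Nr4a1 row positive at 3 months and negative at 12 months.

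Nr4a1 encodes Nur77, an orphan nuclear receptor of the NR4A family. In 12-month livers its level was 6.004 at 0 h, 5.095 at 48 h and 3.845 at 72 h, a descending course. In 3-month livers it was 4.79 at 0 h, 5.80 at 48 h and 5.33 at 72 h. The ages thus differed in opposite directions before and after PH.
At 0 h, 12-month livers were 1.21 above 3-month livers (limma adjusted p = 0.0461 with borrowed spread). At 72 h they were 1.48 below them, with an adjusted p of 0.0809, and this difference is called by its size only. In 12-month livers Nr4a1 was 2.16 lower at 72 h than at 0 h (adjusted p = 0.00968) and 1.25 lower than at 48 h (adjusted p = 0.0848). In 3-month livers it was 1.005 higher at 48 h than at 0 h, with an adjusted p of 0.0939, so by its size only. The difference between the ages in the response from 0 h to 72 h was −2.695, with −2.16 at 12 months and 0.54 at 3 months, and was not tested.

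Macrophage and neutrophil markers differed in the same groups. All 9 macrophage markers were higher at 72 h than at 48 h in untreated 12-month livers, with a summed level of 9.70 against 7.72, and 8 of 9 neutrophil markers were too, with 6.61 against 4.07. Against 3-month livers at 72 h, all 9 macrophage markers were higher at 12 months (summed level 9.70, against 8.30), as were all 9 neutrophil markers (6.61, against 4.28). At 0 h, 9 of 9 macrophage and 8 of 9 neutrophil markers were higher at 12 months, with summed levels of 8.60, against 7.83, and of 5.63, against 3.85. No macrophage marker stood at the lowest level of these tables, and 1 or 2 neutrophil markers did except at 72 h and 12 months. Nr4a1 was higher at 12 months at 0 h and lower at 72 h while these markers were higher at both times. Their part in the differences of Nr4a1 was not tested.

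The markers also differed in the comparisons of 12-month ATRi livers at 72 h. Against 3-month ATRi livers at 72 h, where Klf6 was called, all 9 neutrophil markers were higher (summed level 7.08, against 3.94, 8 of 9 past limma), as were all 9 macrophage markers (9.56, against 7.99, 6 of 9 past limma). Against 12-month ATRi livers at 48 h, where Jun was called, all 9 neutrophil markers (7.08, against 4.24) and all 9 macrophage markers (9.56, against 7.87) were higher, with 8 of 9 of each past limma. Against 12-month livers at 0 h, where Klf6, Egr1 and Nr4a1 were called, 8 of 9 neutrophil markers (7.08, against 5.63, 6 higher by limma) and 6 of 9 macrophage markers (9.56, against 8.60, 5 higher and 1 lower by limma) were above 0 h. Limma passed 28.3%, 37.2% and 48.1% of all genes in these comparisons, in the order given. The part of the markers in the calls of members was not tested.

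With ATRi, Nr4a1 stood at 5.81 at 48 h and 5.03 at 72 h in 12-month livers and at 5.26 at 72 h in 3-month livers. The 4 single livers had 5.11, 4.95, 5.67 and 4.125, all above the untreated 12-month mean at 72 h of 3.845. The margin was 0.28 in M548 and 1.102 to 1.823 in the others. The difference of 1.19 (SE 0.334) had a limma adjusted p of 0.0644 and did not pass in any of 10 alternatives (0.0624 to 0.135). At 48 h the 12-month ATRi mean was 0.72 above the untreated mean, and at 72 h the 3-month ATRi mean was 0.07 below it. Against 0 h the 12-month ATRi livers at 72 h fell by 0.97 (SE 0.289, adjusted p = 0.0322), and this call was lost without M545 or without M546, with adjusted p up to 0.0749. The 12-month untreated mean at 72 h was the lowest of the 9 means, and the 0.95 that separates it from the next is the only gap in the order wider than the SD of the 4 livers (0.638).

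Jun encodes the c-Jun subunit of AP-1. In 12-month livers its level was 6.88 at 0 h, 6.18 at 48 h and 5.99 at 72 h, and in 3-month livers 6.45 at 0 h, 6.27 at 48 h and 5.58 at 72 h. Under ATRi it was 5.78 at 48 h and 6.58 at 72 h in 12-month livers and 5.85 at 72 h in 3-month livers. All 7 means after PH were thus below the 0 h mean of their own age, by 0.18 to 1.098.
With borrowed spread, limma put the 72 h differences past the threshold at both ages (12 months −0.89, adjusted p = 0.0395, and 3 months −0.86, adjusted p = 0.0400), although both are under 1 in size. The largest difference, −1.098, was that of 12-month ATRi livers at 48 h, with an adjusted p of 0.0299.
The 4 single livers had 6.04, 6.82, 6.79 and 6.08 in the order given above. They formed a higher pair, M546 and M547, and a lower pair, M545 and M548, which lay within 0.09 of the untreated 12-month mean at 72 h. Against 12-month ATRi livers at 48 h, Jun rose by 0.80 at 72 h (SE 0.254, adjusted p = 0.0491). The call was lost under 8 of 10 alternatives, among them leaving out M546, M547 or M548, and the adjusted p ranged from 0.0382 to 0.113. No gap in the order of the 9 means of Jun exceeded the SD of the 4 livers (0.43).

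Fos encodes the c-Fos partner of c-Jun in AP-1. Its level was 0.38 at 0 h, 0.26 at 48 h and 0.05 at 72 h in 12-month livers, and 0.50 at 0 h, 0.65 at 48 h and 0.08 at 72 h in 3-month livers. With ATRi it was 0.255 at 48 h and 0.27 at 72 h at 12 months and 0.27 at 72 h at 3 months. In 6 of the 9 group means and in all 4 single livers this was exactly the lowest level that the table lists for any gene. The exceptions were 3 months at 0 h, 3 months at 48 h and 3 months with ATRi at 72 h, where Fos lay above the lowest level by less than 0.4.
The lowest level itself differed between tables, from 0.05 to 0.55, and 9 genes, Fos included, stood at it in 10 or more of the 13 sets of levels. Between tables that both list Fos at the lowest level, a difference of Fos is the difference of those lowest levels. No difference of Fos was 1 or more. With borrowed spread limma passed 3 differences. That at 72 h against 0 h in 12-month livers (−0.33, adjusted p = 0.0414) lies between such tables and is not read as a change of Fos. In 3-month livers those at 72 h against 0 h (−0.42, adjusted p = 0.0204) and against 48 h (−0.57, adjusted p = 0.0297) set the lowest level at 72 h against levels above it. The lowest level itself was 0.393 at 0 h, 0.284 at 48 h and 0.081 at 72 h in these 3-month tables. Each of these differences thus includes that between the lowest levels, and neither is read as the size of a change of Fos.

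Ier2 encodes a short nuclear protein of the immediate early class. Over the 9 group means it ranged from 5.52 in 3-month livers at 0 h to 5.98 in 12-month ATRi livers at 72 h. The 4 single livers, at 6.28, 5.52, 6.23 and 5.94, spread wider (0.77) than the means (0.45). Its largest difference was 0.42, for 3-month ATRi livers at 72 h against 0 h, and it did not pass with borrowed spread (adjusted p = 0.193). At 72 h against 0 h in 12-month ATRi livers it differed by 0.29 (SE 0.178, adjusted p = 0.221), and by 0.445 with an adjusted p of 0.0461 without M546.

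Myc encodes the growth-promoting factor c-Myc, which acts as a dimer with Max. In 12-month livers its level was 2.41 at 0 h, 3.01 at 48 h and 2.37 at 72 h, and in 3-month livers 2.37 at 0 h, 2.48 at 48 h and 3.025 at 72 h. The highest mean thus came at 48 h in the older mice, 0.60 above 0 h, and at 72 h in the younger ones, 0.65 above 0 h. Neither difference reached 1, and limma with borrowed spread gave adjusted p of 0.282 at 12 months and 0.164 at 3 months.
With ATRi Myc stood at 2.71 at 48 h and 2.84 at 72 h in 12-month livers and at 2.34 at 72 h in 3-month livers. The single livers had 2.695, 2.04, 3.39 and 2.385. This spread (SD 0.572) is close to the whole range of the 9 means, 0.68.

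The ATRi comparisons on their own gave few calls among these genes. At 48 h in 12-month livers none of the 7 differed by 1 or more, where 0.576% of all genes did, and the largest difference was the 0.72 of Nr4a1. At 72 h in 3-month livers none did either, where 0.18% of all genes did, and the largest was the −0.68 of Myc. At 72 h in 12-month livers limma passed 0 of 7 genes, where it passed 11.4% of all genes. Of the 7, 4 had an unadjusted p under 0.05 (Klf6, Nr4a1, Jun and Fos, the last at the lowest level in both tables), as did 34.3% of all genes, and plain empirical Bayes also passed 0. The median difference of the 7 was 0.47, against 0.08 over all genes. The 11.4% rests on single livers, since limma passed no gene of the whole table without M545, without M547 or without M548, and 2686 without M546. For 12-month against 3-month ATRi livers at 72 h, 1 of 7 passed (Klf6, higher), where 28.3% of all genes did. For 12-month ATRi livers at 72 h against 48 h, 1 of 7 passed (Jun, higher), against 37.2%, so both shares of members were below those of all genes. Against 0 h 3 of 7 did (Klf6 higher, Egr1 and Nr4a1 lower), against 48.1%. Among means only, 12-month ATRi livers at 48 h against 0 h had 1 member higher by 1 or more (Klf6) and 2 lower (Egr1 and Jun), against 5.2% of all genes. In 3-month ATRi livers at 72 h against 0 h 1 was lower (Egr1), against 3.51%.

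The difference between the ages in the ATRi effect at 72 h was tested directly. It was 1.22 for Klf6 (0.955 at 12 months, −0.27 at 3 months, SE 0.335, limma adjusted p = 0.114), 1.25 for Nr4a1 (1.19 and −0.07, SE 0.473, adjusted p = 0.176) and 1.16 for Myc (0.47 and −0.68, SE 0.447, adjusted p = 0.182). None of the 7 passed, where 0.00899% of all genes, the single gene Cyp2a4, did. The 3 genes named had unadjusted p under 0.05, as did 24.4% of all genes, and plain empirical Bayes passed 0 of 7.

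**Figure D3:**
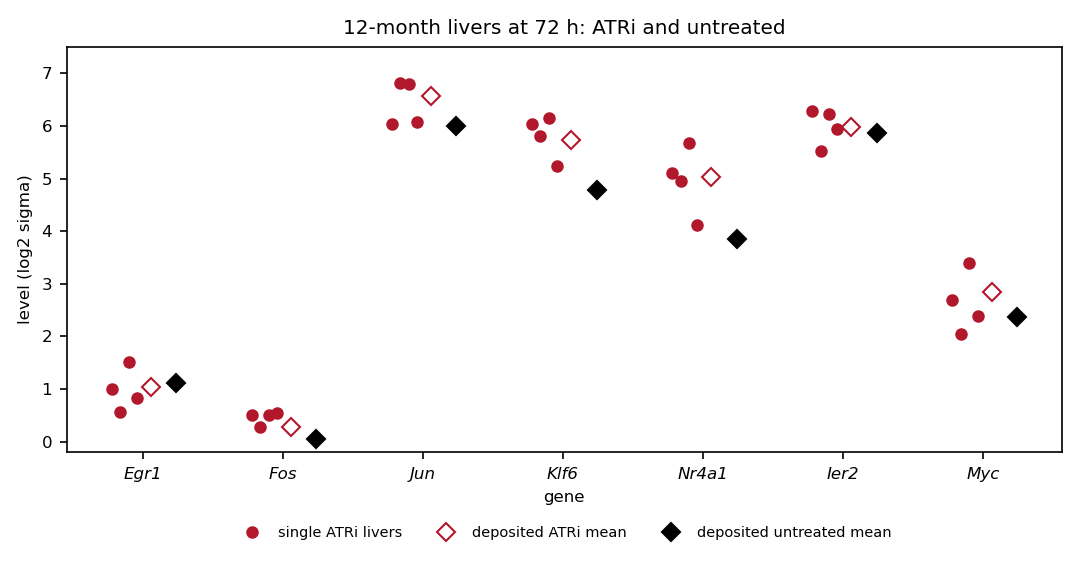
Log2 levels in 12-month livers at 72 h: the 4 single ATRi livers (filled circles, M545 to M548 from left to right), the deposited ATRi mean (open diamond) and the deposited untreated mean (filled black diamond). All 4 livers lie above the untreated mean for Klf6, Nr4a1, Jun and Fos, and the livers enclose it for Egr1, Ier2 and Myc. For Jun, M545 and M548 lie above it by only 0.043 and 0.089. Every Fos value shown is the lowest level of its table, so its differences are those of the lowest levels.

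Among the 4 livers, M547 had the highest level of 4 of the 7 genes and M546 the lowest of 4. The livers' profiles over all genes correlated with r between 0.957 and 0.982, a description over genes that are not independent. The 12-month ATRi table at 72 h stood apart from the untreated one in genes of long span. Genes spanning 100 kb or more had a median difference of 0.50, and 21.6% of them were higher by 1 or more. Genes under 10 kb had a median of −0.07, and 2.4% of them were higher by 1 or more. In 3-month livers the ATRi difference at 72 h had medians of −0.045 and −0.01 in these classes. Of the members, 6 span less than 10 kb and Nr4a1 spans 10 to 30 kb, where the median was −0.05. Klf6 at 0.955 and Nr4a1 at 1.19 therefore lay above the medians of their own span classes.

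**Figure D4:**
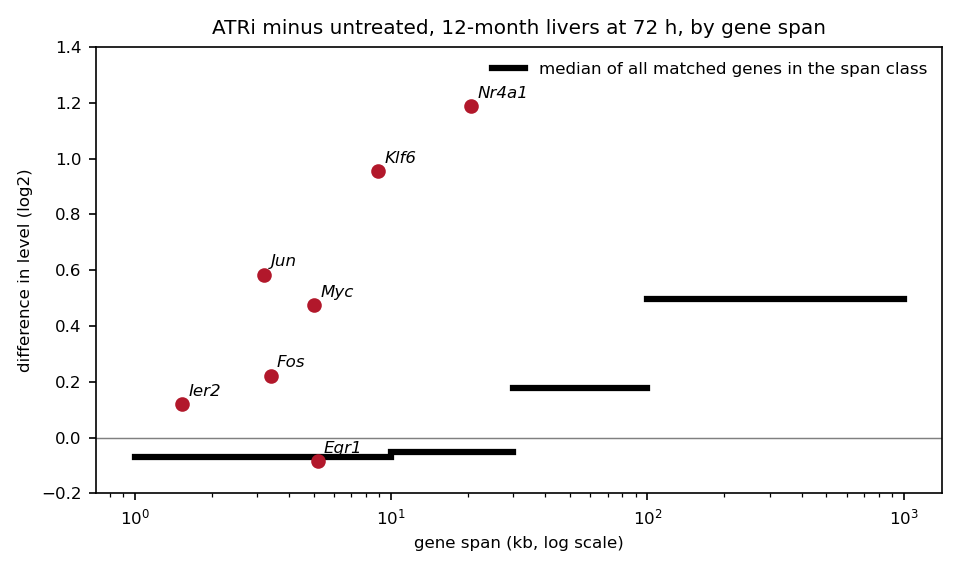
Difference in log2 level between ATRi and untreated 12-month livers at 72 h against gene span in kb on a log axis. Red points are the 7 measured genes, and black bars are the medians of all matched genes in the classes under 10 kb, 10 to 30 kb, 30 to 100 kb and 100 kb or more. Egr1, at −0.08, is the only one of the 7 that does not lie above the median of its class. The difference of Fos is that of the lowest levels.

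Wider members of the same pathway were read from lists of AP-1 partners, related factors, other immediate early genes, feedback inhibitors and upstream kinases. In 3-month livers at 48 h against 0 h, 3 of 36 other immediate early genes were higher by 1 or more and 2 lower, where 6.43% of all genes were called in either direction. Errfi1, an inhibitor of the EGF receptor, was higher by 1.73, Tiparp, an ADP-ribosyltransferase, by 1.46 and Mcl1, an anti-apoptotic BCL2 relative, by 1.14, while Irs2, an insulin receptor substrate, was lower by 1.33. Of 14 MAP kinase feedback genes, 2 were higher, Errfi1 and the phosphatase Dusp8 (1.825). The AP-1 partner Atf3 was higher by 1.045, 1 of 11 in its list. In 3-month livers at 72 h, 5 of 36 other immediate early genes were higher and none lower than at 0 h, where 4.49% of all genes were called, among them Nfkbiz (1.64), which encodes a nuclear IκB protein, Irs2 (1.38) and Csrnp1 (1.34). The AP-1 subunit gene Fosl2 was higher by 1.47. Of 14 MAP kinase feedback genes 1 was higher by 1 or more and 1 lower, with a median of −0.05, against −0.09 over all genes. The lower one was Dusp6, which encodes the phosphatase that inactivates ERK, by 1.21.

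In 12-month livers at 48 h, 2 of 36 other immediate early genes were higher and none lower than at 0 h, a share near the 5.12% of all genes called, namely Socs3 (1.34), an inhibitor of cytokine signalling, and Csrnp1 (1.03). Klf4 was higher by 1.41, 1 of 13 related EGR, NR4A and KLF genes, and Dusp8 by 1.405. At 72 h in 12-month livers, where 3.93% of all genes were called, Egr2, a relative of Egr1, was lower by 1.11 and Klf10 by 1.48, while Klf9 was higher by 1.11. Dusp6 was lower by 1.08, and 2 of 36 other immediate early genes were higher, the kinase gene Plk2 by 1.22 and the clock gene Per1 by 1.08. Between ages at 72 h, 12 against 3 months, 2.74% of all genes were called. Of 13 related EGR, NR4A and KLF genes 3 were lower by 1 or more and 1 higher. Among the lower ones were Nr4a2, a relative of Nr4a1, by 1.08 and Egr2 by 1.05. Of 36 other immediate early genes 1 was higher and 1 lower. Jund, which encodes another AP-1 subunit, was higher by 1.21 and the phosphatase gene Dusp7 by 1.23. Nr4a2 stood at 0.55 at 12 months and 1.63 at 3 months.

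In 12-month livers at 72 h with ATRi against none, limma passed genes of several of these lists, where it passed 11.4% of all genes. Of 36 other immediate early genes 8 were higher and 0 lower, with a median of 0.30, against 0.08 over all genes. Irs2 rose by 3.14 (SE 0.50, adjusted p = 0.0429), with 6.13, 6.04, 7.54 and 8.02 in the 4 livers and 4.01 in the untreated mean. Csrnp1 rose by 2.03, Tiparp by 2.497 and Nfkbiz by 1.52. Of 11 AP-1 and ATF partners, Fosl2 rose by 1.94 and Batf2 fell by 0.415. Of 13 related factors 4 were higher and 1 lower, with Klf9 up by 1.92, Klf13 by 1.76, Egr2 by 1.67 and the EGR co-repressor Nab1 by 0.945. Of 14 feedback genes 2 were higher, Dusp16 (2.29) and Dusp8 (1.33), and Dusp7 fell by 1.31. Of 21 upstream genes 5 were higher, among them Map2k4 (1.54), which encodes a kinase of the JNK pathway, and the ternary complex factor gene Elk1 (1.12). Of 8 Myc partners, Max rose by 0.925 and Mga by 0.80, and of 19 listed Myc targets none passed. All of these calls were lost without M545, M547 or M548, where limma passed no gene. The part of gene span in them was not tested.

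Myc targets and heat shock genes were read beside Myc and the AP-1 factors. Of 19 Myc targets, 2 were higher by 1 or more in 3-month livers at 48 h than at 0 h. They were Ldha (1.37), which encodes lactate dehydrogenase A, and Srm (1.13), which encodes spermidine synthase. In this comparison 6.43% of all genes were called in either direction, and the median of the list was 0.20, against −0.09 over all genes. In 12-month livers at 48 h no Myc target was higher by 1 or more, where 5.12% of all genes were called. The median was 0.35, against −0.02 over all genes. Of 11 heat shock genes, all were above their 0 h level at 48 h in 3-month livers, with a median of 0.66, against −0.09 over all genes. Only Dnajb1 (1.12) was higher by 1 or more, where 6.43% of all genes were called.

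The 7 genes did not run together. Over the 9 group means, which share mice between 0 h and 72 h and a common scaling, 5 of 21 pairs of members had a Pearson r of 0.5 or more and 2 had −0.5 or less. The highest were Ier2 with Klf6 (0.79) and Egr1 with Fos (0.78), where Fos sat at the lowest level in 6 of the 9 means. The lowest was Egr1 with Klf6 (−0.72).
Among 4008 other genes with a range of 1 or more, those most like the median profile of the members were Dusp5 (r = 0.97), a feedback phosphatase of ERK, Trem2 (0.92), Lsm10 (0.92), Rbm14 (0.89), Nfxl1 (0.85), Piga (0.85), Akirin1 (0.84) and Ptges2 (0.83). Dusp5 stood at 1.59 at 0 h, 1.53 at 48 h and 0.98 at 72 h in 12-month livers and at 1.058, 1.99 and 0.93 in 3-month livers. The gene most like each member was Trim65 for Egr1 (0.93), Zdhhc23 for Fos (0.91), Atg16l2 for Jun (0.89), Zfp322a for Nr4a1 (0.75), Neu3 for Ier2 (0.92), Socs3 for Myc (0.86) and Anxa2 for Klf6 (0.96). Nr4a1 had the lowest best match of the 7. Each r is over 9 points and is the highest of 4008, so it describes these means only.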

How the data were processed

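The authors deposited 12 tables of log2 levels of sigma for the same 11119 genes, and the submitters' processing notes name GRCm38/mm10. Aligner, counting, scaling and filters are not given in the sources used here. Without counts the sequencing depth is unknown. Each of the 9 groups has a deposited mean over 3 to 8 mice, and the 12-month ATRi group at 72 h also has its 4 livers. The deposited mean of that group departs from the average of its livers by 0.088 in the median gene (−0.368 to 1.75), so the livers were shifted gene by gene to the deposited mean.

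Members and lists were chosen with earlier results of these data known. Differences of 1 or more were called between means. limma 3.58.1 in R 4.3.3 tested the comparisons with single livers, two-sided, with intensity trend and robust empirical Bayes. Livers had weight 1 and other means the weight of their number of mice, which leaves 3 residual degrees of freedom. The test treats mice shared between 0 h and 72 h as independent. Its check on simulated data gave every group the livers' spread, independent mice and a group mean equal to that of its livers. That check therefore cannot show whether these assumptions hold here. The p-values measure the spread between these 4 livers.

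Named genes are all members, up to 4 genes of each list with the largest difference among those called, the 8 genes of highest Pearson r with the members' median profile and the best match of each member. Gene spans came from GENCODE M21 by symbol and chromosome (10409 genes matched), and promoters from RefSeq, which held 6 of the 9 listed genes and lacked Egr1, Ier2 and Myc. Alternatives were a pseudocount of 1, centring, quantile normalization, a mean level of 1 or more, a 1.5-fold threshold, borrowed spread, unshifted livers, plain empirical Bayes and each liver left out. Python 3.11.15, pandas 2.3.3, numpy 2.4.6 and matplotlib 3.10.9 were used.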

Additional observations from a re-analysis of the deposited data

How the results depend on the processing

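No called difference changed sign under the alternatives run. At 1.5-fold the members called, in either direction, were 4 at 72 h and 3 with ATRi at 72 h against 0 h, and 2 at 72 h against 48 h, at 3 months. At 12 months they were 5 at 48 h and 4 at 72 h against 0 h, and 3 at 72 h against 48 h. They were 2 between ages at 48 h and at 72 h, and 1 for ATRi at 48 h (12 months) and at 72 h (3 months). The share of all genes called at 1.5-fold is not given here. These counts are therefore not read as a result about the members.
Limma with borrowed spread called 1 member at 48 h and 4 at 72 h against 0 h, 2 at 72 h against 48 h and 2 with ATRi at 72 h against 0 h at 3 months. At 12 months it called 4 at 72 h against 0 h and 0 at 72 h against 48 h, and 0 between ages at 48 h and at 72 h. A pseudocount of 1 left 1 member at 48 h at 3 months and 1 at 72 h at 12 months. Centring and quantile normalization each gave 2 for 3-month ATRi livers at 72 h against 0 h.
For ATRi against untreated 12-month livers at 72 h, the main 1270 genes became 0 with livers as deposited, quantile normalization or the lowest level subtracted (added after seeing the data), and 0 to 2686 with a liver left out. Members called were 1 with the filter on mean level, 1 by size, and 0 to 1 with a liver left out. For the age difference under ATRi, 0 to 1 members and 1311 to 3840 genes were called with a liver left out, and 1451 genes by size. For 72 h against 48 h under ATRi, 0 members were called with the lowest level subtracted, livers as deposited, plain empirical Bayes, a pseudocount, quantile normalization or by size, and 0 to 1 with a liver left out. Genes called there were 2191 by size and 2621 to 4550 with a liver left out, and 2018 by size against 0 h. For the age difference of the ATRi effect, the main 1 gene became 0 under the filter, plain empirical Bayes, quantile normalization and the lowest level subtracted, 0 to 1311 with a liver left out, and 1242 by size, where 3 members were called. The members' median was 0 for 72 h against 0 h at 12 months with the lowest level subtracted, and 0.739 for the age difference of the ATRi effect with the filter or without Fos. The causes were not tested.
No paired analysis was possible because the 0 h mice are given only within group means. The number of mice, and 4 single livers in 1 group, limit the precision.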
